A study of Mus musculus with 21 samples.

Results

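Imprinted genes are expressed mainly or only from the paternal or from the maternal copy, some of them in certain tissues alone, and 46 of them were followed through 21 mouse RNA-seq libraries. The genes were chosen by symbol, from a list drawn up with their levels in these libraries known. The highest mean FPKM would have picked among rows of a repeated symbol, but no symbol was repeated. All 46 were among the 27968 genes of the sorted-cell table, and 40 were among the 19321 genes with values in the coculture table. The 6 that were not listed there were the non-coding H19, Meg3, Rian, Mirg, Kcnq1ot1 and Airn. Expression was measured as FPKM, a fragment count scaled by the length of the gene and the size of the library. The files gave no read counts, so the sequencing depth was unknown.

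Each group had 3 libraries. The sorted-cell table held 5 groups. The mESC group was mouse embryonic stem cells of strain background 129/ola, sorted on SSEA-1 and, per the study's methods, kept on mouse embryonic fibroblasts. D5-LSKCD201+ and D5-LSKCD201- were cells of the same background, induced in a 3D self-assembling peptide system, reseeded as colonies on OP9 stromal cells with SCF, IL-3 and Flt3 ligand and sorted on day 5 with or without CD201, the endothelial protein C receptor. FL-LSKCD201+ and BM-LSKCD201+ came from C57BL/6 mice, from the liver of mid-gestation fetuses and from the bone marrow of adults aged 6 to 8 weeks. LSK stands for lineage-negative, Sca-1+ and c-kit+ cells. By these labels strain and origin cannot be told apart between the D5 and the mouse-derived groups. The study's methods name stem cells of both strains, so the strain of the mESC and D5 libraries rests on their labels alone. The coculture table held 3D+OP9 and 3D+0.1% gelatin, total cells of strain background 129/ola on day 5 with and without the mouse stromal line OP9, whose own RNA may be in the 3D+OP9 libraries. Both D5 groups were sorted from cultures on OP9, so its RNA may be in their libraries too. The study calls the 3 libraries of each sorted group biological replicates, without naming the cultures or animals, and the labels list those of the cocultures as separate samples, where p-values may measure technical spread only. RNA of both alleles was summed, and which allele was expressed was not measured.

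Imprints are DNA methylation marks set differently in the male and female germ line and kept through early development by factors such as Zfp57, Trim28 and Dnmt1. Imprinted genes lie in clusters, in which a methylated control region switches neighbouring genes and often a long non-coding RNA of the opposite allele. Many paternally expressed members, Igf2 and Peg3 among them, are known for fetal growth, and several maternally expressed members, such as Igf2r, Grb10 and Phlda2, for restraining it. Several are also known from blood: Igf2 is a growth factor used to expand fetal liver stem cells, H19 and Meg3 have been tied to blood stem cells of the embryo and adult, and Dlk1 marks supporting and emerging cells of the embryonic niche.

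Zfp57 binds the letters TGCCGC when they are methylated, and a promoter window that holds them is shown for 4 members with high levels or large differences among the sorted cells. Windows are from RefSeq on GRCm38.p6, run from 250 bases before to 50 bases after a start and are written 5′ to 3′ on the gene's strand, with TGCCGC or its reverse complement GCGGCA in capitals. They are a Mest window on the plus strand at chr6:30737800-30738099, an Igf2 window on the minus strand at chr7:142661222-142661521, the only one of 4 for this gene with a match, the Plagl1 window on the plus strand at chr10:13090582-13090881 and a Meg3 window on the plus strand at chr12:109540746-109541045.
Mest: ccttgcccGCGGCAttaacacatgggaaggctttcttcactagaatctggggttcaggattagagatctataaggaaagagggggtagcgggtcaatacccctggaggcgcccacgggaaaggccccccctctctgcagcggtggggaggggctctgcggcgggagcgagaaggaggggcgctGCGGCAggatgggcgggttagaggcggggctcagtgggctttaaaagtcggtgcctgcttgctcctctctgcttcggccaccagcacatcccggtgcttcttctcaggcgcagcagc
Igf2: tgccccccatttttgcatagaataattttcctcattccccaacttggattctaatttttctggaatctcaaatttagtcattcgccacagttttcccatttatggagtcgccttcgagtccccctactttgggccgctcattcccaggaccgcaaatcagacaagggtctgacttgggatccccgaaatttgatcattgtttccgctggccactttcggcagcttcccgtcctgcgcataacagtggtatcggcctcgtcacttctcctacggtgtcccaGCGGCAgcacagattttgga
Plagl1: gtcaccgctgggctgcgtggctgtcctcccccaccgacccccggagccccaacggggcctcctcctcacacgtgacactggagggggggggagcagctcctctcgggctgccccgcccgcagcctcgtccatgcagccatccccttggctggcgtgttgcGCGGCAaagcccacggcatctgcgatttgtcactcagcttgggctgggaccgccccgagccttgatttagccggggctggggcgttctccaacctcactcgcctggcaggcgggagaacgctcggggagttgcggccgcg
Meg3: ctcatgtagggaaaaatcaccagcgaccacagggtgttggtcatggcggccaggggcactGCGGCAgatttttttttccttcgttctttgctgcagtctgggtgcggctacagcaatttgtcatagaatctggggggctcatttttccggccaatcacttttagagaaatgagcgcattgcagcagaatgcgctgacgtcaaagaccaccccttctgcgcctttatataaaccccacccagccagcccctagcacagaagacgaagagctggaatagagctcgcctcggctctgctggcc
Of the 46 genes, 39 had a window in the table and 59 windows in all. The letters stood in 14 of the 59 windows (23.7%) and in 11.6% of all 32851 windows of the table. The median number of CpG sites was 14 per window for these genes and 7 for all. A match is a description of sequence, and binding or methylation was not measured.

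Several members are hosts of microRNAs, 23 hairpins in 8 of the genes by position, 14 of them in Mirg. The mature products of the hairpins in Mest, Igf2, Meg3 and H19, the 4 hosts with the highest group means, are given from RefSeq, with bases 2 to 8, the seed, in capitals. MicroRNAs themselves were not measured, and these 8 seeds differed from each other.
mmu-miR-335-5p (Mest): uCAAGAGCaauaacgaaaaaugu
mmu-miR-335-3p (Mest): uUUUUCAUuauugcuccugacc
mmu-miR-483-5p (Igf2): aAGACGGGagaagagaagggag
mmu-miR-483-3p (Igf2): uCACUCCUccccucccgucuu
mmu-miR-770-5p (Meg3): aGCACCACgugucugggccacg
mmu-miR-770-3p (Meg3): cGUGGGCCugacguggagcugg
mmu-miR-675-5p (H19): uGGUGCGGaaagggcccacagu
mmu-miR-675-3p (H19): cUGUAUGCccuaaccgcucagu

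The total FPKM of a library lay between 508622 and 620332 in the sorted-cell table and between 483263 and 508307 in the coculture table. In 4 groups a library stood apart from a much closer pair of replicates: D5-LSKCD201- replicate 2, FL-LSKCD201+ replicate 1, BM-LSKCD201+ replicate 1 and 3D+OP9 replicate 3. No libraries were identical, and the counts of imprinted genes called higher or lower were repeated without each library. The sort genes followed the labels, with Procr, which encodes CD201, at a mean of 59.7 FPKM in D5-LSKCD201+ against 3.48 in D5-LSKCD201-. Ptprc, which encodes the pan-hematopoietic CD45, averaged 0.409 FPKM in D5-LSKCD201+, 0.633 in D5-LSKCD201-, 43.5 in FL-LSKCD201+ and 66.8 in BM-LSKCD201+. This marker was thus under 1 FPKM in every D5 library and far higher in the mouse-derived cells. The 12 hematopoietic markers summed to 190.1 to 198 FPKM per library in D5-LSKCD201+, 47.5 to 52.5 in D5-LSKCD201- and 1779 to 2129 in FL-LSKCD201+. The 12 endothelial markers summed to 3087 to 3194 FPKM in D5-LSKCD201+, 189.9 to 198 in D5-LSKCD201- and 510.3 to 565 in FL-LSKCD201+.

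The list was drawn up with levels in these libraries known, and its genes held their largest share among the 5 sorted groups in D5-LSKCD201+. The 46 genes made up 1.28% ± 0.0158 (SD, n = 3) of all FPKM there, 0.342% ± 0.0326 in D5-LSKCD201-, 0.232% ± 0.00119 in mESC, 0.215% ± 0.00283 in FL-LSKCD201+ and 0.196% ± 0.00130 in BM-LSKCD201+. The libraries of D5-LSKCD201+ did not overlap with those of any other group. Mest, Igf2 and Gnas together made up 77.7% ± 0.440 of what the members summed to in D5-LSKCD201+, against 44.5% ± 3.64 in D5-LSKCD201-. Without these 3 genes the share was 0.286% ± 0.00366 in D5-LSKCD201+, 0.189% ± 0.00736 in D5-LSKCD201-, 0.179% ± 0.00144 in mESC, 0.123% ± 0.00325 in FL-LSKCD201+ and 0.0812% ± 0.00438 in BM-LSKCD201+, and D5-LSKCD201+ was still highest without overlap. Of the 46 genes, 21 had their highest group mean in D5-LSKCD201+, 10 in D5-LSKCD201-, 8 in BM-LSKCD201+, 4 in FL-LSKCD201+ and 3 in mESC. The lowest mean was in BM-LSKCD201+ for 22 and in mESC for 13. By mean FPKM over all genes, Mest ranked 5th, Igf2 16th and Gnas 47th in D5-LSKCD201+. The map of levels by library shows this, with bright rows for Mest, Igf2 and Gnas and mostly dark columns for BM-LSKCD201+.

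**Figure D1:**
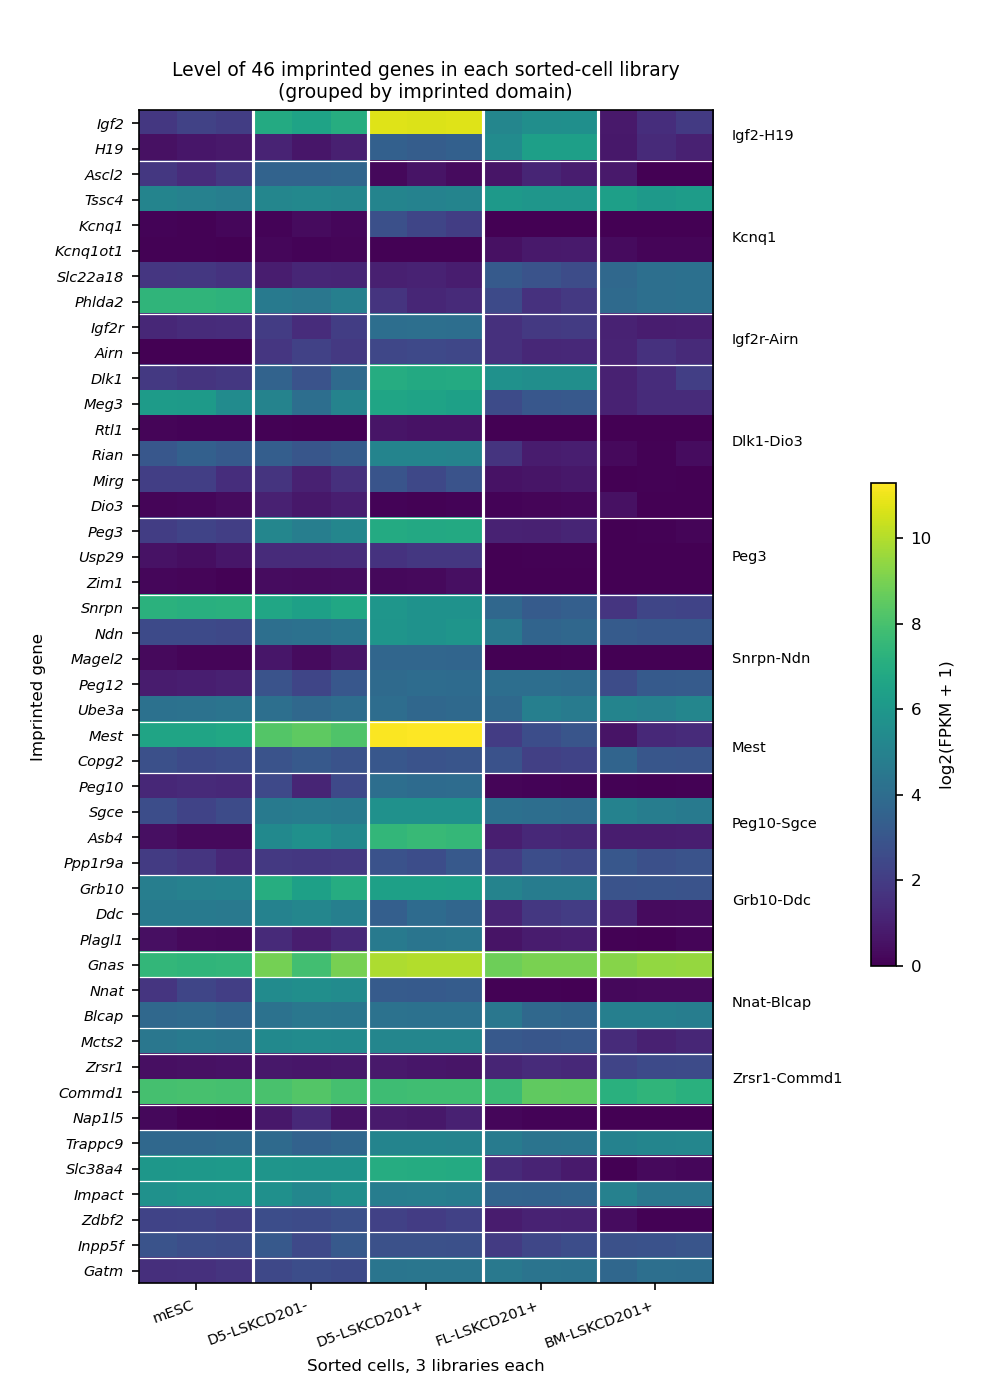
Level of the 46 imprinted genes (rows, by imprinted domain) in the 15 sorted-cell libraries (columns, 3 per group), as log2(FPKM + 1), from dark (0) to yellow (highest). Mest and Igf2 are brightest in D5-LSKCD201+, Phlda2 in mESC, and H19 in FL-LSKCD201+.

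Cells with and without CD201 on day 5 were compared first, which asks how the CD201 gate divides the induced cells. Levels were tested as log2(FPKM + 1) with limma across 13691 genes that averaged 0.5 FPKM or more. A gene was called when its Benjamini-Hochberg adjusted p was under 0.05 and its log2 fold change was 1 or more in size. Of the 42 imprinted genes tested, 22 rose and 4 fell with the CD201 gate. Of all genes tested, 24.7% were called, 10.8% higher and 13.9% lower. The calls over all genes were 43.7% higher, and 51.8% with quantile normalization, so their majority turned. Groups did not overlap for 35 of the 42 and for 73.6% of all genes. The median log2 fold change was 1.04 over the 42 and -0.12 over all genes, and 0.52 over all 46 with no filter on low values. The 4 that were not tested, for low levels, were Kcnq1ot1, Rtl1, Zim1 and Dio3. A gene can pass this filter through the group where it is high and then has to differ. This was so for Kcnq1 and Magel2 among the higher genes and Ascl2 among the lower ones, whose other group averaged under 0.5 FPKM, and it leaves 20 higher and 3 lower. By expressed allele, 11 of 20 paternal, 7 of 12 maternal and 4 of 10 mixed or tissue-specific members were higher, and 1, 2 and 1 were lower. These allele counts still include Magel2, a paternal member, and Kcnq1 and Ascl2, both maternal. The plot of fold changes orders all 42.

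**Figure D2:**
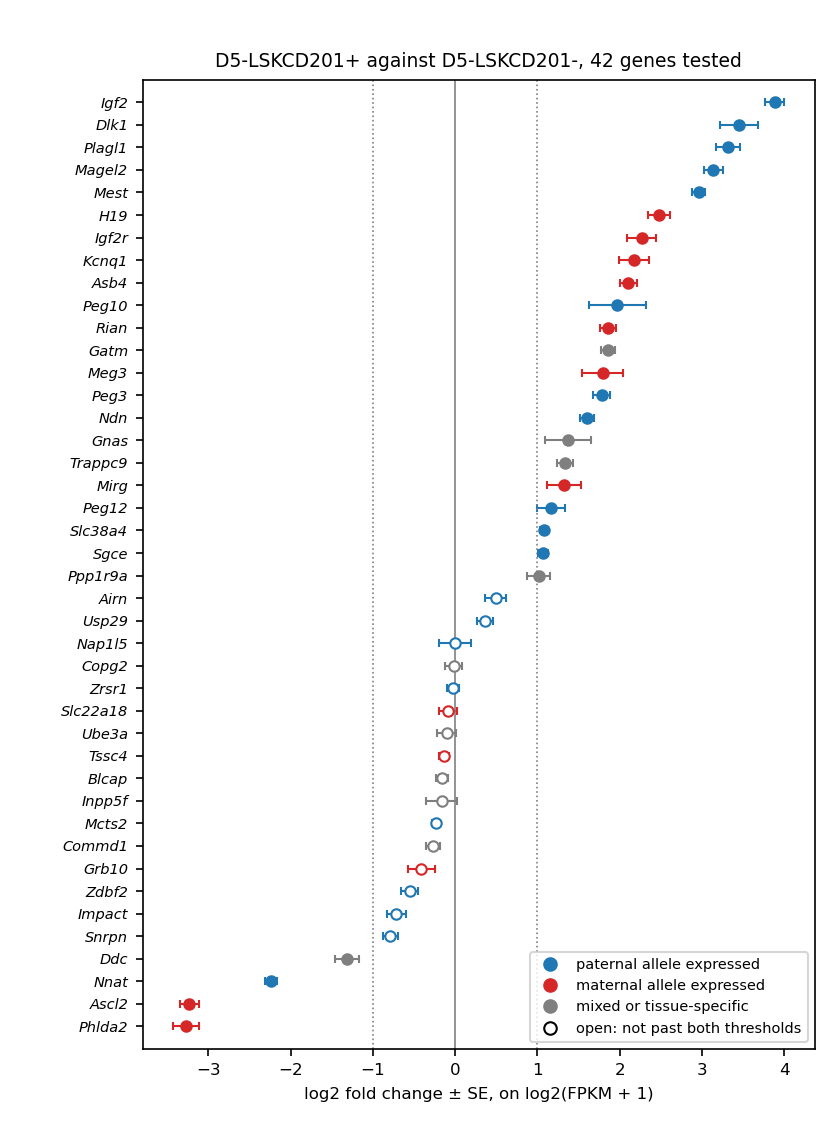
Log2 fold change ± SE (horizontal axis) of each of the 42 imprinted genes tested between D5-LSKCD201+ and D5-LSKCD201-, coloured by the allele the gene is known to be expressed from. Filled points passed both thresholds, dotted lines mark a log2 fold change of 1 in either direction, and the points run from Phlda2 at -3.27 to Igf2 at 3.88.

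Markers of other cells moved with this gate. The 10 pluripotent markers summed to 3757 to 4258 FPKM per library in D5-LSKCD201- and 26.3 to 35.2 in D5-LSKCD201+, and all 10 were lower in D5-LSKCD201+. All 12 endothelial markers were higher, summing to 3087 to 3194 FPKM against 189.9 to 198. Stromal markers summed to 101 to 110.4 FPKM in D5-LSKCD201+ against 65.9 to 112 in D5-LSKCD201-, with 2 of 11 tested higher and 2 lower. Germ cell markers, which include stem cell genes, summed to 3.14 to 3.52 and 85.8 to 92.4 FPKM, with 8 of 8 lower. Of the hematopoietic markers 5 of 11 tested were higher and 2 lower, and Ptprc was not among the higher ones. Visceral endoderm and hepatoblast markers, 1 of 9 tested higher and 5 lower, summed to 163 to 182 FPKM in D5-LSKCD201+ and 159 to 169 in D5-LSKCD201-, which overlapped. Erythroid markers, 1 of 10 tested higher and 4 lower, summed to 53.9 to 81 and 89.97 to 159. No marker of these lists was at 0 in all libraries of a D5 group. The part of these cells, and of any OP9 RNA left after the sort, in the imprinted results was not tested. In sorted populations fewer cells of a type and less RNA per cell cannot be told apart.

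Igf2 and H19 are neighbours at the distal end of chromosome 7 that share enhancers, Igf2 encoding a fetal growth factor on the paternal allele and H19 a maternal non-coding RNA. Igf2 (chr7:142650766-142666816, minus strand) measured 1699, 1654 and 1675 FPKM in the 3 D5-LSKCD201+ libraries and 119, 93 and 128 in D5-LSKCD201-. In mESC it measured 2.58, 3.62 and 3.17, in FL-LSKCD201+ 35.4, 46.4 and 48 and in BM-LSKCD201+ 0.727, 1.81 and 2.82. Every D5-LSKCD201+ library lay far above all others, and the bone marrow and mESC libraries were the lowest and overlapped. On the log2(FPKM + 1) scale, which understates changes of low genes, the gate difference was the largest among the members (log2 fold change 3.88 ± 0.11 (SE), adjusted p = 2.81e-07). H19 (chr7:142575529-142578143, minus strand) measured 9.96, 9.08 and 10.1 FPKM in D5-LSKCD201+ against 1.21, 0.620 and 0.987 in D5-LSKCD201- (log2 fold change 2.48 ± 0.13 (SE), adjusted p = 4.21e-06). It measured 0.430, 0.616 and 0.687 in mESC, 42.8, 82.7 and 81.1 in FL-LSKCD201+ and 0.674, 1.51 and 1.07 in BM-LSKCD201+. H19 thus had another order than Igf2, with the fetal liver libraries highest and D5-LSKCD201+ next. The ratio of Igf2 to H19, both per length, was 173 ± 8.26 (SD, n = 3) in D5-LSKCD201+, 126 ± 26 in D5-LSKCD201-, 5.49 ± 0.763 in mESC, 1.64 ± 0.863 in BM-LSKCD201+ and 0.660 ± 0.146 in FL-LSKCD201+.

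Igf2r, maternally expressed, encodes the receptor that removes the IGF2 protein for degradation. Its values (chr17:12682406-12769664, minus strand) were 16, 16.5 and 15.8 FPKM in D5-LSKCD201+ against 3.08, 1.67 and 3.12 in D5-LSKCD201- (log2 fold change 2.27 ± 0.17 (SE), adjusted p = 2.46e-05). They were 1.4, 1.61 and 1.72 in mESC, 1.95, 2.66 and 2.94 in FL-LSKCD201+ and 1.11, 0.879 and 0.934 in BM-LSKCD201+. The receptor was highest where the ligand was highest, yet the ratio of Igf2 to Igf2r still ran from 1.91 ± 1.19 in BM-LSKCD201+ and 1.98 ± 0.235 in mESC through 17.3 ± 0.923 in FL-LSKCD201+ and 45.3 ± 9.18 in D5-LSKCD201- to 104 ± 3.16 in D5-LSKCD201+. Airn, the paternal RNA transcribed across Igf2r on the opposite strand, averaged 4.41 FPKM in D5-LSKCD201+ against 2.87 in D5-LSKCD201- (log2 fold change 0.49, adjusted p = 0.00978, under the fold threshold). It was listed at 0 in all mESC libraries. The files name no strand for the reads, and where these genes overlap the reads cannot be told apart.

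**Figure D3:**
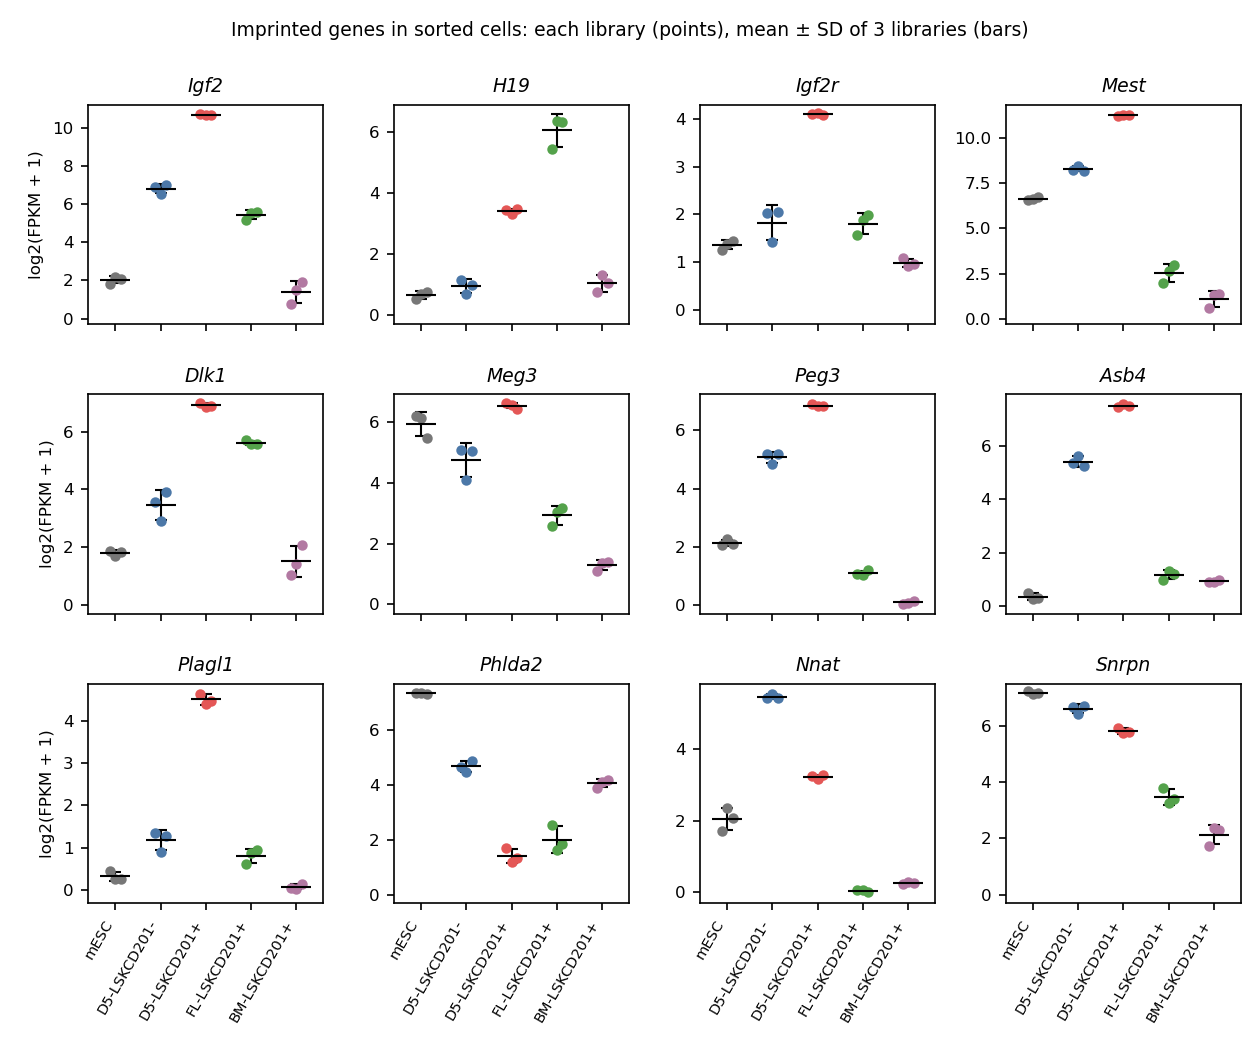
Log2(FPKM + 1) of 12 imprinted genes (vertical axes) in the 5 sorted groups (horizontal axes), with a point for each library and a bar for the mean ± SD of 3. D5-LSKCD201+ is highest for Igf2, Igf2r, Mest, Dlk1, Meg3, Peg3, Asb4 and Plagl1, FL-LSKCD201+ for H19, mESC for Phlda2 and Snrpn, and D5-LSKCD201- for Nnat.

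The Dlk1-Dio3 domain of chromosome 12 carries paternal protein-coding genes and maternal non-coding RNAs. Dlk1 (chr12:109452823-109463336, plus strand), a transmembrane Notch-family ligand, measured 126, 115 and 118 FPKM in D5-LSKCD201+ against 10.9, 6.49 and 14.1 in D5-LSKCD201- (log2 fold change 3.45 ± 0.23 (SE), adjusted p = 1.26e-05). Its values were 2.69, 2.26 and 2.57 in mESC, 51.2, 46.4 and 46.5 in FL-LSKCD201+ and 1.04, 1.66 and 3.26 in BM-LSKCD201+. Both D5-LSKCD201+ and fetal liver were thus clear of the other groups, and bone marrow was near the level of mESC. Meg3 (chr12:109541001-109571726, plus strand), a maternal long non-coding RNA that is silenced in some stem cell lines, measured 97.2, 91.6 and 85.3 FPKM in D5-LSKCD201+ against 32.5, 16.1 and 31.9 in D5-LSKCD201- (log2 fold change 1.79 ± 0.25 (SE), adjusted p = 5.39e-04). It measured 71.4, 68.9 and 43 in mESC, 4.97, 7.27 and 7.99 in FL-LSKCD201+ and 1.14, 1.6 and 1.61 in BM-LSKCD201+. Meg3 was therefore present in the starting stem cells, and the mouse-derived groups were the lowest. The ratio of Dlk1 to Meg3 was 0.0434 ± 0.0143 in mESC, 0.393 ± 0.0530 in D5-LSKCD201-, 1.31 ± 0.0630 in D5-LSKCD201+, 1.33 ± 0.609 in BM-LSKCD201+ and 7.5 ± 2.45 in FL-LSKCD201+.

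The maternal RNAs downstream moved in the same direction as Meg3 between the gates. Rian, host of small nucleolar RNAs, measured 33.4, 33.2 and 32 FPKM in D5-LSKCD201+ against 9.39, 7.18 and 8.62 in D5-LSKCD201- (log2 fold change 1.86 ± 0.10 (SE), adjusted p = 3.80e-06). Its values were 7.35, 9.91 and 8.09 in mESC, 2.21, 0.788 and 0.949 in FL-LSKCD201+ and 0.235, 0.0625 and 0.287 in BM-LSKCD201+. D5-LSKCD201+ was again above all other libraries. Mirg, host of a microRNA cluster, measured 6.69, 4.53 and 6.44 FPKM in D5-LSKCD201+ against 2.26, 1.06 and 2.0 in D5-LSKCD201- (log2 fold change 1.32 ± 0.21 (SE), adjusted p = 0.00104). It measured 3.26, 3.28 and 1.79 in mESC, 0.449, 0.575 and 0.658 in FL-LSKCD201+ and 0, 0.0314 and 0.0210 in BM-LSKCD201+, so bone marrow was close to 0. The paternal Rtl1, a retrotransposon-derived placental gene, averaged 0.504 FPKM in D5-LSKCD201+, 0.0865 in mESC and 0.0271 in D5-LSKCD201-, and was listed at 0 in every fetal liver and bone marrow library. Dio3, which inactivates thyroid hormone, had its highest mean in D5-LSKCD201- (0.878 FPKM against 0.0671 in D5-LSKCD201+). Both were under the level needed for the test between the gates.

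Mest (chr6:30723547-30748465, plus strand), a paternally expressed gene for a hydrolase-like protein known as a marker of embryonic mesoderm, had the highest level of the members in D5-LSKCD201+. It measured 2400.4, 2490.4 and 2484 FPKM in D5-LSKCD201+ against 303, 354 and 292 in D5-LSKCD201- (log2 fold change 2.96 ± 0.08 (SE), adjusted p = 1.97e-07). It measured 94.6, 96.5 and 105 in mESC, 2.97, 5.29 and 6.94 in FL-LSKCD201+ and 0.526, 1.48 and 1.61 in BM-LSKCD201+. Levels thus ranged from among the most abundant transcripts in D5-LSKCD201+ to near 1 FPKM in bone marrow. Copg2, a coat protein gene that overlaps Mest on the opposite strand, kept group means between 4.41 FPKM in FL-LSKCD201+ and 8.52 in BM-LSKCD201+. The Mest to Copg2 ratio was 364 ± 30.3 in D5-LSKCD201+, 46 ± 1.19 in D5-LSKCD201-, 18.5 ± 1.86 in mESC, 1.3 ± 0.722 in FL-LSKCD201+ and 0.161 ± 0.100 in BM-LSKCD201+. As for Igf2r and Airn, reads from where these genes overlap cannot be told apart.

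The Peg3 domain of proximal chromosome 7 holds zinc finger genes. Peg3 (chr7:6703892-6730431, minus strand), a paternal zinc finger regulator of growth and maternal behaviour, measured 118, 113 and 113 FPKM in D5-LSKCD201+ against 35.6, 27.7 and 35.3 in D5-LSKCD201- (log2 fold change 1.78 ± 0.10 (SE), adjusted p = 5.16e-06). It measured 3.2, 3.8 and 3.3 in mESC, 1.1, 1.05 and 1.28 in FL-LSKCD201+ and 0.0198, 0.0586 and 0.101 in BM-LSKCD201+. Peg3 was thus high in both D5 groups and low in stem cells and in the mouse-derived blood cells. Usp29, which starts head to head with Peg3, averaged 2.41 FPKM in D5-LSKCD201+ against 1.65 in D5-LSKCD201- (log2 fold change 0.36, adjusted p = 0.0124, under the fold threshold). Zim1, a maternal zinc finger gene, had a mean under 0.5 FPKM in every sorted group.

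On chromosome 6, the paternal neighbours Peg10 and Sgce and the maternal Asb4 were all higher in D5-LSKCD201+. Peg10, a retrotransposon-derived gene needed for the placenta, measured 15.9, 14.6 and 14.9 FPKM in D5-LSKCD201+ against 4.64, 1.23 and 4.55 in D5-LSKCD201- (log2 fold change 1.97 ± 0.35 (SE), adjusted p = 0.00178). The second D5-LSKCD201- library was the low one, and without it the log2 fold change was 1.53. Peg10 measured 1.36, 1.53 and 1.43 in mESC, 0.117, 0.0768 and 0.0416 in FL-LSKCD201+ and 0.0585, 0.00602 and 0.0320 in BM-LSKCD201+. Sgce, epsilon-sarcoglycan, measured 51.7, 51.2 and 51.8 FPKM in D5-LSKCD201+ against 23.2, 26 and 23.1 in D5-LSKCD201- (log2 fold change 1.07 ± 0.06 (SE), adjusted p = 7.25e-06). It measured 5.26, 3.89 and 5.02 in mESC, 16.7, 15.7 and 15 in FL-LSKCD201+ and 30.9, 26.2 and 23.9 in BM-LSKCD201+. Peg10 was thus close to 0 in the mouse-derived blood cells, where Sgce was not. The ratio of Peg10 to Sgce was 0.294 ± 0.0128 in D5-LSKCD201+ but 12.7 ± 1.32 in the separately normalized 3D+OP9 libraries, and the cause was not tested. Asb4, a ubiquitin ligase subunit known from developing vessels, measured 179, 192 and 183 FPKM in D5-LSKCD201+ against 40.2, 49.4 and 37.5 in D5-LSKCD201- (log2 fold change 2.11 ± 0.10 (SE), adjusted p = 2.33e-06). It measured 0.395, 0.205 and 0.216 in mESC, 0.957, 1.48 and 1.3 in FL-LSKCD201+ and 0.856, 0.866 and 0.958 in BM-LSKCD201+, so both D5 groups were far above the rest. Ppp1r9a, neurabin, measured 6.09, 5.27 and 7.84 FPKM in D5-LSKCD201+ against 2.71, 2.52 and 2.64 in D5-LSKCD201- (log2 fold change 1.02 ± 0.14 (SE), adjusted p = 4.74e-04). Its values were 2.89, 2.33 and 1.35 in mESC, 2.95, 5.41 and 4.63 in FL-LSKCD201+ and 7.27, 5.68 and 6.41 in BM-LSKCD201+. This call sat at the fold threshold and was lost without D5-LSKCD201+ replicate 3 (0.88) or D5-LSKCD201- replicate 2 (0.996).

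The Snrpn-Ndn domain of central chromosome 7 corresponds to the Prader-Willi and Angelman region of humans. Magel2, a ubiquitin ligase regulator, measured 12.2, 12.1 and 11.7 FPKM in D5-LSKCD201+ against 0.615, 0.265 and 0.573 in D5-LSKCD201- (log2 fold change 3.14 ± 0.12 (SE), adjusted p = 8.18e-07). It measured 0.206, 0.0997 and 0.126 in mESC and 0, 0.0144 and 0.0372 in FL-LSKCD201+, and was listed at 0 in all 3 bone marrow libraries. Expression above 1 FPKM was thus seen in D5-LSKCD201+ alone among the sorted groups, and Magel2 passed the filter on low values only through this group. Ndn, necdin, a growth suppressor known to hold blood stem cells quiescent, measured 57.7, 52.4 and 58.9 FPKM in D5-LSKCD201+ against 16.4, 17.6 and 19.9 in D5-LSKCD201- (log2 fold change 1.6 ± 0.09 (SE), adjusted p = 4.27e-06). It measured 4.74, 4.72 and 4.38 in mESC, 21.7, 11.6 and 12.5 in FL-LSKCD201+ and 8.4, 7.66 and 7.61 in BM-LSKCD201+. Ndn was present in every library, lowest in mESC. Peg12, a Frat-family Wnt regulator, measured 13.8, 14.6 and 14.5 FPKM in D5-LSKCD201+ against 6.37, 4.17 and 7.25 in D5-LSKCD201- (log2 fold change 1.17 ± 0.17 (SE), adjusted p = 6.81e-04). It measured 0.799, 0.955 and 1.06 in mESC, 15.7, 15.9 and 14.8 in FL-LSKCD201+ and 5.22, 8.21 and 8.43 in BM-LSKCD201+. Fetal liver and D5-LSKCD201+ were close together here, and the gate call was lost without D5-LSKCD201- replicate 2 (0.97).

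Snrpn, a paternal splicing factor gene of the same domain, went the other way. It measured 59.2, 52.5 and 53.3 FPKM in D5-LSKCD201+ against 100.4, 83.8 and 103 in D5-LSKCD201- (log2 fold change -0.79 ± 0.09 (SE), adjusted p = 2.33e-04, under the fold threshold). It measured 147, 138 and 141 in mESC, 12.8, 8.4 and 9.53 in FL-LSKCD201+ and 2.34, 4.16 and 3.86 in BM-LSKCD201+. The groups did not overlap and followed one order from mESC down to bone marrow. Ube3a, a ubiquitin ligase imprinted in neurons, had means from 13.7 FPKM in D5-LSKCD201+ to 32.7 in BM-LSKCD201+, and its gate difference did not pass the adjusted p.

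The Kcnq1 domain, at the far end of chromosome 7, held the strongest decreases on the log2(FPKM + 1) scale. Phlda2 (chr7:143501545-143503150, minus strand), a maternal gene that limits placental growth, measured 2.24, 1.3 and 1.55 FPKM in D5-LSKCD201+ against 24.5, 21.5 and 28.4 in D5-LSKCD201- (log2 fold change -3.27 ± 0.16 (SE), adjusted p = 2.51e-06). It measured 164, 163 and 158 in mESC, 4.84, 2.08 and 2.63 in FL-LSKCD201+ and 13.9, 16.5 and 17.2 in BM-LSKCD201+. Stem cells were highest and D5-LSKCD201+ lowest by mean. Ascl2 (chr7:142966829-142969264, minus strand), a maternal transcription factor of trophoblast, measured 0.181, 0.493 and 0.256 FPKM in D5-LSKCD201+ against 10.9, 10.9 and 11.9 in D5-LSKCD201- (log2 fold change -3.23 ± 0.12 (SE), adjusted p = 6.66e-07). It measured 2.51, 1.73 and 2.52 in mESC, 0.555, 1.22 and 0.866 in FL-LSKCD201+ and 0.706, 0 and 0 in BM-LSKCD201+. D5-LSKCD201- was thus above every other library, and Ascl2 passed the filter on low values only through this group. Trophoblast markers summed to 9.88 to 38.3 FPKM per library in D5-LSKCD201- and 0.999 to 1.31 in D5-LSKCD201+, with Prl3d1, Tpbpa and Psg17 at 0 in all D5-LSKCD201- libraries and 3 of 3 tested markers lower in D5-LSKCD201+. Their part in the Ascl2 and Phlda2 values was not tested.

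Other genes of the Kcnq1 domain differed in direction. Kcnq1, a potassium channel subunit, averaged 4.32 ± 1.35 FPKM (SD, n = 3) in D5-LSKCD201+ against 0.155 ± 0.0847 in D5-LSKCD201- (log2 fold change 2.18 ± 0.18 (SE), adjusted p = 3.96e-05). It was listed at 0 in all fetal liver libraries, and it passed the filter on low values only through D5-LSKCD201+. Kcnq1ot1, the paternal antisense RNA within it, had its highest mean in FL-LSKCD201+ at 0.620 FPKM and 0.0445 in D5-LSKCD201+, and the strand limit holds for this pair too. Slc22a18, a maternal organic cation transporter, averaged 1.01 FPKM in D5-LSKCD201+, 1.13 in D5-LSKCD201-, 6.57 in FL-LSKCD201+ and 15.4 in BM-LSKCD201+, so it was highest in the mouse-derived cells. Tssc4 likewise averaged 32.4 FPKM in D5-LSKCD201+ and 74 in BM-LSKCD201+. Neither differed between the gates past the thresholds.

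Of single-gene domains, Plagl1 (chr10:13060504-13131694, plus strand) encodes a zinc finger factor known to activate other imprinted genes. It measured 23.9, 19.97 and 21.1 FPKM in D5-LSKCD201+ against 1.56, 0.872 and 1.43 in D5-LSKCD201- (log2 fold change 3.32 ± 0.14 (SE), adjusted p = 1.42e-06). It measured 0.374, 0.204 and 0.196 in mESC, 0.530, 0.825 and 0.924 in FL-LSKCD201+ and 0.0358, 0.0279 and 0.106 in BM-LSKCD201+. Only the D5-LSKCD201+ libraries were above 2 FPKM among the 15. Gnas, the stimulatory G protein alpha subunit, whose imprinting depends on the transcript, measured 963, 1001 and 1011 FPKM in D5-LSKCD201+ against 492, 229 and 494 in D5-LSKCD201- (log2 fold change 1.37 ± 0.28 (SE), adjusted p = 0.00384). It measured 179, 165 and 172 in mESC, 436, 508 and 515 in FL-LSKCD201+ and 604, 709 and 713 in BM-LSKCD201+. Gnas was abundant in every library, and without the low second D5-LSKCD201- library its log2 fold change was 1.01.

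Among transporters and enzymes, Slc38a4, a paternal amino acid transporter, measured 125, 123 and 118 FPKM in D5-LSKCD201+ against 58.7, 56.3 and 56.8 in D5-LSKCD201- (log2 fold change 1.08 ± 0.05 (SE), adjusted p = 2.01e-06). It measured 62.1, 62.8 and 65.5 in mESC, 1.51, 1.21 and 0.782 in FL-LSKCD201+ and 0, 0.212 and 0.146 in BM-LSKCD201+. Stem cells and both D5 groups thus had it and the mouse-derived blood cells hardly did. Gatm, an enzyme of creatine synthesis imprinted in the placenta, measured 19.6, 20.5 and 20.6 FPKM in D5-LSKCD201+ against 4.39, 5.41 and 4.86 in D5-LSKCD201- (log2 fold change 1.85 ± 0.09 (SE), adjusted p = 2.34e-06). It measured 1.83, 1.95 and 2.2 in mESC, 22.7, 19.5 and 18.4 in FL-LSKCD201+ and 12.6, 16.3 and 15.8 in BM-LSKCD201+, so the values of D5-LSKCD201+ lay within those of fetal liver. Trappc9, a trafficking gene, measured 33, 33.2 and 32.1 FPKM in D5-LSKCD201+ against 14, 10.6 and 12.8 in D5-LSKCD201- (log2 fold change 1.33 ± 0.10 (SE), adjusted p = 2.29e-05). It measured 13.1, 13 and 13.9 in mESC, 25.2, 19.5 and 19.96 in FL-LSKCD201+ and 31.4, 34.2 and 35.3 in BM-LSKCD201+. Here the values of D5-LSKCD201+ lay within those of bone marrow.

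Nnat and Ddc were the remaining decreases. Nnat (chr2:157560078-157562522, plus strand), neuronatin, a paternal membrane protein gene inside an intron of Blcap, measured 8.57, 8.03 and 8.75 FPKM in D5-LSKCD201+ against 42.3, 46.3 and 42.1 in D5-LSKCD201- (log2 fold change -2.24 ± 0.07 (SE), adjusted p = 3.60e-07). It measured 2.31, 4.1 and 3.22 in mESC, 0.0502, 0.0494 and 0 in FL-LSKCD201+ and 0.181, 0.210 and 0.202 in BM-LSKCD201+. Nnat was thus highest in D5-LSKCD201- and close to 0 in the mouse-derived blood cells, and reads where it overlaps Blcap cannot be assigned by strand. Ddc, dopa decarboxylase, measured 9.61, 14.3 and 12.3 FPKM in D5-LSKCD201+ against 30.8, 34.7 and 27.8 in D5-LSKCD201- (log2 fold change -1.31 ± 0.15 (SE), adjusted p = 1.70e-04). It measured 23.8, 23.5 and 22.3 in mESC, 1.18, 2.54 and 3.04 in FL-LSKCD201+ and 1.26, 0.250 and 0.282 in BM-LSKCD201+. D5-LSKCD201- libraries were highest and mESC next, with no overlap. Its neighbour Grb10, a maternal brake on insulin and IGF signalling, averaged 83 ± 1.9 FPKM in D5-LSKCD201+ against 113 ± 25.6 in D5-LSKCD201-, and this difference did not pass the adjusted p (0.0558). Without D5-LSKCD201- replicate 2 it did, with a log2 fold change of -0.61 (adjusted p = 5.47e-06), under the fold threshold.

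The other members showed smaller gate differences. Impact, a paternal regulator of translation, averaged 26.4 FPKM in D5-LSKCD201+ against 44.3 in D5-LSKCD201- (log2 fold change -0.71, adjusted p = 0.00142). Zdbf2, a paternal zinc finger gene, averaged 3.34 and 5.38 FPKM (-0.55, adjusted p = 0.00199). Mcts2, a retrogene copy of Mcts1 whose reads may be split between copies, averaged 35 and 41.3 FPKM (-0.23, adjusted p = 0.00534). These passed the adjusted p but not the fold threshold, as did Commd1 (-0.27), a copper and NF-kB regulator. Zrsr1, a splicing factor retrogene inside Commd1, and Nap1l5, a paternal retrogene, averaged under 1 FPKM in both D5 groups, and Zrsr1 and Commd1 overlap on opposite strands with the same limit. Blcap and the phosphatase gene Inpp5f kept means between 13 and 27.8 FPKM and between 4.14 and 6.88 FPKM over the 5 groups.

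Against the stem cells of origin, 23 of 41 imprinted genes tested were higher in D5-LSKCD201+ and 4 lower. Of all genes tested 37.6% were called, 19.5% higher and 18.1% lower. Libraries of the groups were apart without overlap for 38 of the 41 members and 86.1% of all genes. The median log2 fold change was 1.23 over the members and -0.07 over all genes. The largest increases were Igf2 (log2 fold change 8.68 ± 0.08 (SE), adjusted p = 5.60e-12), Dlk1 (5.11), Peg3 (4.71) and Mest (4.63) among genes that averaged 0.5 FPKM or more in both groups. The 4 lower genes were Phlda2 (log2 fold change -5.93 ± 0.11 (SE), adjusted p = 1.72e-10), Snrpn (-1.35), Ascl2 (-1.31) and Impact (-1.04). Meg3 differed by 0.61 (adjusted p = 0.00769), short of the fold threshold. Of the 23 higher genes, Asb4, Usp29, Plagl1, Magel2, Kcnq1 and Airn averaged under 0.5 FPKM in mESC and passed the filter only through D5-LSKCD201+, which leaves 17, and of the lower ones Ascl2 passed only through mESC, which leaves 3. All 12 endothelial markers were higher and all 10 pluripotent markers lower, at 6849 to 7414 FPKM in mESC in sum. Stromal markers, 8 of 10 tested higher and 1 lower, summed to 101 to 110.4 FPKM in D5-LSKCD201+ and 21.9 to 24.3 in mESC, and 7 of 8 germ cell markers were lower. The part of these cells was not tested. The calls over all genes were 51.9% higher, and 48.9% with quantile normalization. Kcnq1ot1, Rtl1, Dio3, Zim1 and Nap1l5 were not tested.

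D5-LSKCD201- differed from mESC in 13 genes that were higher and 2 that were lower, of 40 tested. Of all genes tested 14.3% were called, 10.9% higher and 3.48% lower. Libraries of the groups were apart without overlap for 31 of the 40 members and 64.4% of all genes. Of the calls over all genes 75.7% were higher, and 59.8% with quantile normalization. Members had a median log2 fold change of 0.52 and all genes one of 0.05. Igf2 (log2 fold change 4.79 ± 0.14 (SE), adjusted p = 7.05e-07), Nnat (3.42), Peg3 (2.93) and Sgce (2.14) led the higher genes on the log2(FPKM + 1) scale. This ranking took only genes that averaged 0.5 FPKM or more in both groups. The 2 lower genes were Phlda2 (-2.67) and Meg3 (log2 fold change -1.19 ± 0.30 (SE), adjusted p = 0.0122), and the Meg3 call was lost without D5-LSKCD201- replicate 2 (-0.87) or without mESC replicate 1 (-1.06, adjusted p = 0.0517). The Gnas call (log2 fold change 1.15) was lost without D5-LSKCD201- replicate 1 (0.97) or replicate 3 (0.96), while Peg10 (0.76) passed without replicate 2 (1.20). H19 differed by 0.29 (adjusted p = 0.112). D5-LSKCD201- libraries still held pluripotent markers at 3757 to 4258 FPKM in sum against 6849 to 7414 in mESC, with 3 of 10 lower. Higher were 9 of 12 endothelial, 8 of 10 tested stromal, 7 of 9 tested visceral endoderm and hepatoblast and 3 of 3 tested trophoblast markers, and the part of these cells was not tested. Asb4 and Airn passed the filter only through D5-LSKCD201-, which leaves 11 higher. Kcnq1, Kcnq1ot1, Rtl1, Zim1, Magel2 and Nap1l5 were not tested.

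The induced cells were then set beside fetal liver cells sorted on the same surface markers. In D5-LSKCD201+, 26 of 41 tested members were higher than in FL-LSKCD201+ and 2 were lower. Of all genes tested 34.7% were called, 15.1% higher and 19.6% lower. Libraries of the groups were apart without overlap for 35 of the 41 members and 76.6% of all genes. The median log2 fold change was 1.54 over the members and -0.16 over all genes. Mest (log2 fold change 8.72 ± 0.24 (SE), adjusted p = 2.06e-07), Asb4 (6.37), Slc38a4 (5.84), Peg3 (5.75) and Igf2 (5.25) were the most different on the log2(FPKM + 1) scale. This ranking took only genes that averaged 0.5 FPKM or more in both groups. The 2 lower genes were H19 (log2 fold change -2.65 ± 0.25 (SE), adjusted p = 7.17e-05) and Slc22a18 (-1.90). Tssc4 (-0.91) was lower by the adjusted p alone, and Peg12 differed by -0.10 (adjusted p = 0.228). By allele, 17 of 19 paternal, 7 of 12 maternal and 2 of 10 mixed members were higher, with 0, 2 and 0 lower. These allele counts include the paternal Usp29, Magel2, Peg10 and Nnat and the maternal Kcnq1, which are set aside below. The Gnas call (1.03) was lost without FL-LSKCD201+ replicate 1 (0.95). Usp29, Magel2, Peg10, Nnat and Kcnq1 averaged under 0.5 FPKM in fetal liver and passed the filter only through D5-LSKCD201+, which leaves 21 higher. The calls over all genes were 43.5% higher, and 50.2% with quantile normalization. Kcnq1ot1, Rtl1, Dio3, Zim1 and Nap1l5 were not tested.

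Marker genes of other liver cells were also measured in the fetal liver libraries, although the sort for lineage-negative, Sca-1+ and c-kit+ cells is meant to remove such cells. Of the hematopoietic markers 11 of 12 were lower in D5-LSKCD201+ and 1 was higher, and of the endothelial markers 11 of 12 were higher. Stromal markers, 5 of 10 tested higher and 1 lower, summed to 101 to 110.4 FPKM in D5-LSKCD201+ and 24.8 to 26 in FL-LSKCD201+, with Dpt at 0 in all fetal liver libraries. The 13 visceral endoderm and hepatoblast markers summed to 542 to 794 FPKM per library in FL-LSKCD201+ and 163 to 182 in D5-LSKCD201+. Of the 9 tested, 8 were lower and 1 was higher in D5-LSKCD201+. In FL-LSKCD201+ Afp measured 188, 271 and 261 FPKM and Alb 63, 73.7 and 69.7. Afp and Alb averaged 0.462 and 0.0324 FPKM in D5-LSKCD201+, so the sum there came almost wholly from other markers of the list. The 12 erythroid markers summed to 17847 to 35874 FPKM in FL-LSKCD201+ and 53.9 to 81 in D5-LSKCD201+, with 10 of 12 lower and 0 higher in D5-LSKCD201+. FL-LSKCD201+ replicate 1 was lowest for H19 and Igf2 and in both marker sums, but highest for Dlk1. Igf2, H19 and Dlk1 are also known from hepatoblasts, and the part of any such cells in the fetal liver values was not tested.

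Against adult bone marrow, 24 of 40 tested members were higher in D5-LSKCD201+ and 5 lower. Of all genes tested 44.7% were called, 17.5% higher and 27.2% lower. The calls over all genes were 39.1% higher, and 49.01% with quantile normalization, under which 26 members were higher. Libraries of the groups were apart without overlap for 36 of the 40 members and 85.3% of all genes. The median log2 fold change was 2.38 over the members and -0.23 over all genes, and over the members 1.41 with no filter on low values and 3.79 with a pseudocount of 0.1. Mest (log2 fold change 10.16 ± 0.19 (SE), adjusted p = 7.39e-09), Igf2 (9.31), Asb4 (6.62), Dlk1 (5.40) and Meg3 (5.24) were furthest apart on the log2(FPKM + 1) scale. This ranking took only genes that averaged 0.5 FPKM or more in both groups. The 5 lower genes were Slc22a18 (log2 fold change -3.02 ± 0.12 (SE), adjusted p = 2.40e-07), Phlda2 (-2.65), Zrsr1 (-1.78), Ube3a (-1.19) and Tssc4 (-1.16). Gnas (0.56) and Sgce (0.91) passed the adjusted p alone, and Sgce passed both thresholds without BM-LSKCD201+ replicate 1 (1.01). The Airn call (1.07) was lost without BM-LSKCD201+ replicate 1 (0.94). Of the 24 higher genes, 11 averaged under 0.5 FPKM in bone marrow and passed the filter only through D5-LSKCD201+, which leaves 13. They were Rian, Mirg, Peg3, Usp29, Plagl1, Magel2, Peg10, Nnat, Kcnq1, Slc38a4 and Zdbf2. All 12 endothelial markers were higher, at 3087 to 3194 FPKM in sum against 403 to 447 in bone marrow, and 11 of 12 hematopoietic markers were lower, at 190.1 to 198 against 2266 to 2543. Stromal markers, 8 of 10 tested higher, summed to 101 to 110.4 against 11.8 to 12.9 FPKM, with Lum and Fap at 0 in all bone marrow libraries. Their part was not tested. The 4 comparisons of D5-LSKCD201+ share its libraries and are not independent. Against bone marrow, Ascl2, Kcnq1ot1, Rtl1, Dio3, Zim1 and Nap1l5 were not tested.

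Bone marrow and fetal liver cells came from the same strain and were sorted on the same markers, and this pair compares adult bone marrow with fetal liver cells that had no culture. Organ and age changed together here and cannot be told apart. Of 34 tested members, 11 were lower and 4 higher in BM-LSKCD201+. Of all genes tested 19.1% were called, 11.3% higher and 7.78% lower. The calls over all genes were 59.3% higher, and 50.7% with quantile normalization. Libraries of the groups were apart without overlap for 30 of the 34 members and 63.5% of all genes. The median log2 fold change was -0.72 over the members and 0.13 over all genes, and over the members -0.24 both with no filter and with a minimum mean of 1 FPKM. H19 (log2 fold change -5.03 ± 0.27 (SE), adjusted p = 1.18e-05), Dlk1 (log2 fold change -4.10 ± 0.25 (SE), adjusted p = 1.85e-05) and Igf2 (log2 fold change -4.05 ± 0.28 (SE), adjusted p = 3.29e-05) were the most strongly lower, with group values that did not overlap. Of the 11, Peg3 alone averaged under 0.5 FPKM in bone marrow and passed the filter only through fetal liver. Grb10 (-1.95), Mcts2 (-1.87), Meg3 (-1.65), Mest (-1.44), Snrpn (-1.34), Ddc (-1.04), Peg3 (-1.02) and Peg12 (-1.01) were lower as well. The 4 higher genes were Phlda2 (log2 fold change 2.06 ± 0.24 (SE), adjusted p = 3.16e-04), Zrsr1 (1.20), Slc22a18 (1.12) and Impact (1.06). Under the level for testing were Kcnq1, Kcnq1ot1, Rtl1, Mirg, Dio3, Usp29, Zim1, Magel2, Peg10, Plagl1, Nnat and Nap1l5. The plot of fold changes between both tissues shows 3 genes set apart below -4.

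**Figure D4:**
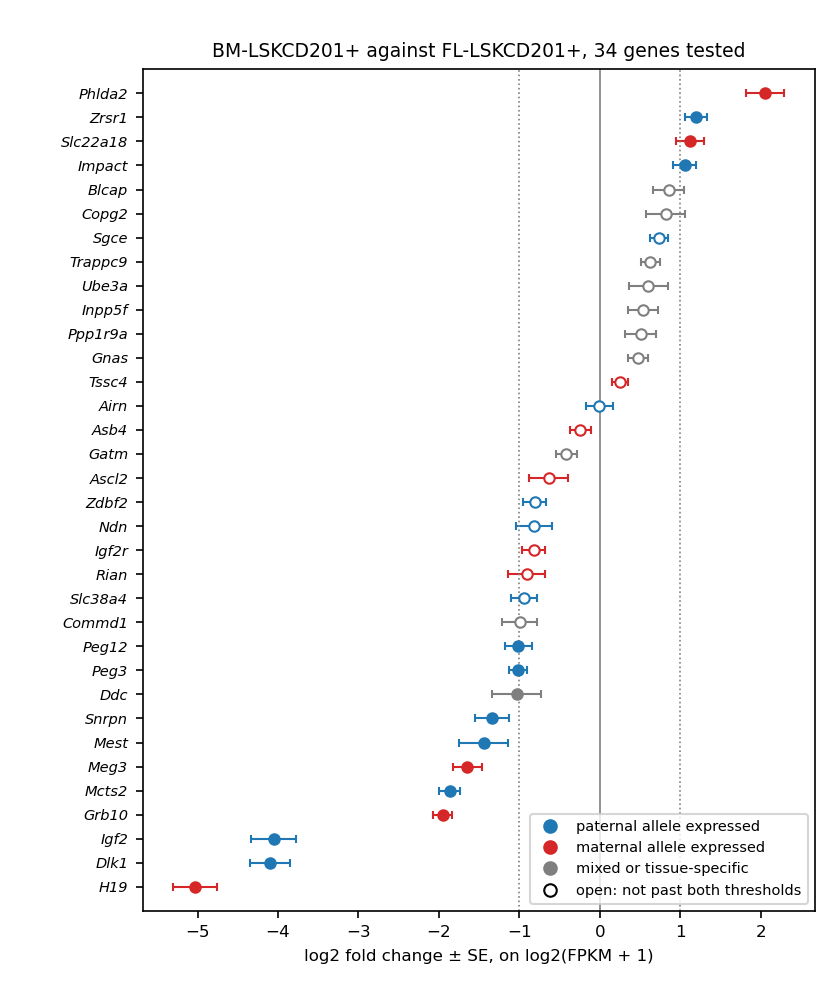
Log2 fold change ± SE (horizontal axis) of the 34 imprinted genes tested between BM-LSKCD201+ and FL-LSKCD201+, coloured by known expressed allele, filled where both thresholds were passed. H19, Dlk1 and Igf2 lie below -4 and Phlda2 lies at 2.06.

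Calls near the threshold depended on single libraries or settings here. The Ddc call was lost with the replicate number as a block (adjusted p = 0.0573), with no filter on low values (0.0575), with the closest pair of replicates averaged (log2 fold change -0.76, adjusted p = 0.150) and without BM-LSKCD201+ replicate 2 or 3 or FL-LSKCD201+ replicate 2 or 3 (log2 fold change -0.95 to -0.85, adjusted p 0.0687 to 0.0803). Without BM-LSKCD201+ replicate 1, Peg3 (-0.99), Peg12 (-0.82) and Impact (0.90) fell short of the fold threshold. Without FL-LSKCD201+ replicate 2, so did Peg12 (-0.99), and without FL-LSKCD201+ replicate 3, Peg3 (-0.97) and Slc22a18 (0.98). All 12 erythroid markers and 8 of 9 tested visceral endoderm and hepatoblast markers were also lower in BM-LSKCD201+, which summed to 274 to 319 and 94.8 to 102 FPKM, with Rbp4, Foxa2 and Cubn at 0 in all bone marrow libraries. Their part was not tested.

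In total cells on day 5, the comparison asks what coculture with OP9 changes, and 3 of 37 tested members were higher and 1 lower in 3D+OP9. Of the 12958 genes tested 2.62% were called, 2.11% higher and 0.509% lower. Members had a median log2 fold change of 0.12 and all genes one of 0.01. Igf2 measured 471, 565 and 508 FPKM in 3D+OP9 and 212, 69.5 and 120.1 in 3D+0.1% gelatin (log2 fold change 2.08 ± 0.35 (SE), adjusted p = 0.0143). The call was lost without 3D+OP9 replicate 2 (2.01, adjusted p = 0.0566) and without 3D+0.1% gelatin replicate 3 (2.07, adjusted p = 0.0539). Mest measured 303, 327 and 255 FPKM in 3D+OP9 and 155, 124 and 130.3 in 3D+0.1% gelatin (log2 fold change 1.10 ± 0.12 (SE), adjusted p = 0.00297). Dlk1 measured 24.5, 31.7 and 38.8 FPKM with OP9 against 14.9, 9.33 and 12.6 on gelatin (log2 fold change 1.3 ± 0.20 (SE), adjusted p = 0.0110). In all 3 genes each coculture library was above each gelatin library. Over the 37 members 11 had groups that did not overlap, in either direction, as had 28.7% of all genes.

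Snrpn was lower with OP9, at 69.7, 67.4 and 114 FPKM against 140.0, 176 and 187 on gelatin (log2 fold change -1.02 ± 0.21 (SE), adjusted p = 0.0279). The groups did not overlap, with 3D+OP9 replicate 3 nearest to the gelatin libraries. This call was lost in 4 of the 6 fits that left out a library, 3D+OP9 replicate 1 or 2 or 3D+0.1% gelatin replicate 2 or 3 (log2 fold change -0.98 to -0.89, adjusted p 0.0952 to 0.128), and with quantile normalization (-0.96, adjusted p = 0.0320). Igf2r (46.3, 49.1 and 43.1 against 28.8, 20.4 and 21.7 FPKM, log2 fold change 0.95 ± 0.13 (SE), adjusted p = 0.00754) and Magel2 (3.86, 4.4 and 3.7 against 7.21, 7.95 and 6.88 FPKM, log2 fold change -0.74 ± 0.11 (SE), adjusted p = 0.00999) passed the adjusted p but not the fold threshold. So did Slc22a18 (0.65), Ddc (0.63) and Impact (-0.37). Asb4 had a log2 fold change of 1.13 with an adjusted p of 0.132, and passed both without 3D+OP9 replicate 3 (1.6). Igf2r passed both without 3D+0.1% gelatin replicate 1 (1.10).

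**Figure D5:**
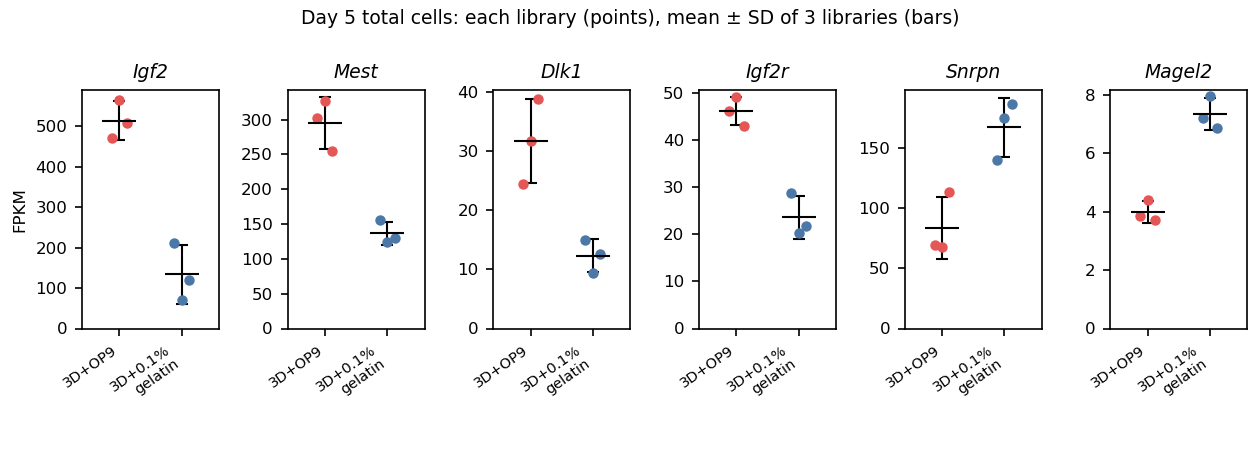
FPKM (vertical axes, from 0) of 6 imprinted genes in total cells of day 5, with a point for each library, on OP9 or on 0.1% gelatin, and a bar for the mean ± SD of 3. No gene overlaps between the groups, with Igf2, Mest, Dlk1 and Igf2r higher and Snrpn and Magel2 lower in 3D+OP9.

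The most abundant members of the coculture table in 3D+OP9 were Gnas at a mean of 574 FPKM, Igf2, Mest and Peg10 (172). On gelatin they were Gnas (547), Snrpn (167), Peg10 (164), Mest (137) and Igf2 (134). The 40 genes made up 0.489% ± 0.0375 of all FPKM in 3D+OP9 and 0.376% ± 0.0239 in 3D+0.1% gelatin. Of the other members, Grb10, Phlda2, Peg3, Slc38a4, Zdbf2 and Nnat gave no call, and Zim1 had an adjusted p of 0.0561. Peg10 relative to Sgce was 12.7 ± 1.32 in 3D+OP9 but 0.294 ± 0.0128 in D5-LSKCD201+ cells of the other table, so levels of both tables were not put on one scale. Rtl1, Kcnq1 and Nap1l5 were not tested. Endothelial markers, 9 of 12 higher, summed to 172 to 199.9 FPKM in 3D+OP9 and 38.8 to 60.6 on gelatin. Stromal markers, 3 of 11 tested higher, summed to 120.1 to 139.6 and 78.2 to 107, and erythroid markers, 7 of 9 tested higher, to 219 to 783 and 5.04 to 23.1, with Hbb-bs at 0 in every library and Hbb-bt at 0 in 3D+OP9. Hematopoietic markers, 5 of 8 tested higher, summed to 31.1 to 42.5 and 10.1 to 11.8. Of the pluripotent markers 3 of 10 were higher, and their sums of 895 to 1715 and 1321 to 1398 overlapped. The part of these cells, and of OP9 RNA, in the imprinted results was not tested.

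Genes that set or keep imprints were listed apart from the members. Of 24 tested of 25 such genes, 1 was higher with the CD201 gate and 8 were lower, beside 10.8% and 13.9% of all genes tested. The higher one was Tet3 (1.09), a demethylating enzyme. The lower ones were Dppa3 (-5.77), which protects imprints in the egg, Dnmt3l (-5.52) and Dnmt3b (-2.91) of new methylation, Hells (-1.88), Eed (-1.58), Trim28 (-1.30), Setdb1 (-1.05) and Tet1 (-1.03). Tet3, Setdb1 and Tet1 lay near the fold threshold, and calls of this list were not repeated under other settings. Zfp57 averaged 162 FPKM in mESC, 43.9 in D5-LSKCD201-, 26.1 in D5-LSKCD201+, 0.776 in FL-LSKCD201+ and 2.25 in BM-LSKCD201+, and the gate difference did not pass the adjusted p (0.0774). Dnmt1, the maintenance enzyme, averaged 38.2 and 40.01 FPKM in D5-LSKCD201+ and D5-LSKCD201-. Several of the lower genes are also stem cell genes, and the pluripotent markers that moved with the gate are given above. Between 3D+OP9 and gelatin, Tet2 alone of 24 tested was called (1.26), beside 2.62% of all genes.

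Another 40 imprinted genes outside the list gave 9 higher and 5 lower of 27 tested in D5-LSKCD201+ against D5-LSKCD201-, with a median log2 fold change of 0.34. Over all genes tested 10.8% were higher and 13.9% lower. Cdkn1c, a maternal cell cycle inhibitor of the Kcnq1 domain, measured 883, 878 and 884 FPKM in D5-LSKCD201+ against 46.2, 51.9 and 49.3 in D5-LSKCD201- (log2 fold change 4.14, adjusted p = 3.34e-08). It averaged 92.6 FPKM in FL-LSKCD201+, 85.2 in mESC and 55.8 in BM-LSKCD201+, so no other sorted group came near D5-LSKCD201+. The paraoxonase gene Pon3 (2.99) and Tnfrsf23 (2.26) were higher too, and Cobl (-2.03) and Adam23 (-1.76) were lower.

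Partners of Igf2 in its pathway were also listed. Of 14 tested of 17, 5 were higher with the CD201 gate and 1 was lower, against the same 10.8% and 13.9% of all genes. Igf1, the other ligand, averaged 50.2 FPKM against 3.73 (log2 fold change 3.44). The binding proteins Igfbp3 (3.63), Igfbp4 (3.02) and Igfbp5 (2.86) and the kinase Akt1 (1.25) were higher, and Igfbp2 (-3.23) was lower. The signalling receptor Igf1r averaged 1.89 FPKM in D5-LSKCD201+, 1.34 in D5-LSKCD201-, 7.53 in FL-LSKCD201+ and 8.33 in BM-LSKCD201+. Igf2, Igf1, Igfbp3, Igfbp4 and Igfbp5 thus had their highest means of the sorted groups in D5-LSKCD201+, while Igfbp2 did not and Igf1r was higher in the mouse-derived cells. In bone marrow against fetal liver, 4 of 11 tested were lower and 1 was higher, beside 7.78% and 11.3% of all genes. The RNA-binding proteins Igf2bp1, Igf2bp2 and Igf2bp3, of the fetal program, were among the lower ones (-3.56, -2.64 and -4.28), as Igf2 was.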

How the data were processed

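RNA of 21 libraries was sequenced, and the deposited values were FPKM. Per the labels and the study's methods, the authors aligned reads with HISAT2 2.0.5 to GRCm38 and computed FPKM with StringTie 1.3.3. The study's methods name Cuffdiff 1.3.0 for differential genes, at a q-value under 0.05 and a log2 fold change of 1 or more in size. The same cutoffs were used here with another test. The submitters' processing notes name Cuffdiff 1.3.0 too, and mm9. Strand handling and depth were not given in the sources used here, so no precision from read counts can be stated. The 2 tables were normalized separately and tested separately. Of 22899 genes listed for the cocultures, 3578 were blank and left out.

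Values were analysed as log2(FPKM + 1), which understates changes of low genes, in genes averaging 0.5 FPKM or more in the 6 libraries compared. limma 3.58.1 (trend option, two-sided, R 4.3.3) was run on each of 7 pairs of groups, with Benjamini-Hochberg adjustment over all genes tested. A call needed an adjusted p under 0.05 and a log2 fold change of 1 or more in size. An exact permutation test of 3 against 3 libraries cannot go below p = 0.1. Scripts were tested on simulated data. Members and lists were chosen with earlier results of these data known. Members at 5 FPKM or more in a group and past both thresholds between the D5 groups or the cocultures are given in every library, others by means or ranges. Positions are from GENCODE M21 (GRCm38), in which 27828 of the 27968 gene identifiers were found. Among the members, 5 pairs overlap on opposite strands, and where they overlap their reads cannot be told apart. Genes outside the list are also given the same locus as some members, among them Usp29, Ube3a, Snrpn and Igf2. Any effect on the values was not tested.

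Alternatives were a pseudocount of 0.1, no filter, quantile normalization, a minimum mean of 1 FPKM, limma without the trend, 1 fit over 5 groups, the adjusted p alone, each library left out and the replicate number as a block. Averaging the closest pair of replicates was added after seeing the data. Calls of single genes outside the members were not repeated under these alternatives. Deviations of same-numbered libraries correlated above 0.1 for every number only between BM-LSKCD201+ and FL-LSKCD201+ (0.242, 0.202 and 0.159 across genes). The replicate block treats these numbers as pairs, which no label gives. BM-LSKCD201+ replicate 3 matched FL-LSKCD201+ replicate 2 best, and replicate 1 stood apart in both groups, so a pairing was not shown.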

Additional observations from a re-analysis of the deposited data

How the results depend on the processing

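No member named with a fold change reversed its direction under the alternatives run. Of the values recomputed for single genes, 2351 kept direction and side of the thresholds, 35 fell short of a threshold and 17 passed one, mostly at a log2 fold change near 1, and the cause was not tested. With the adjusted p alone, 3D+OP9 against gelatin had 6 members higher and 3 lower, D5-LSKCD201+ had 9 lower against D5-LSKCD201-, 8 lower against mESC and 5 lower against FL-LSKCD201+, D5-LSKCD201- had 22 higher and 5 lower against mESC, and BM-LSKCD201+ had 10 higher and 18 lower against FL-LSKCD201+, since this rule sets no fold. A pseudocount of 0.1 gave 5 higher in 3D+OP9, with Slc22a18 (1.63) and Ddc (1.24) added, and 4 lower in D5-LSKCD201+ against FL-LSKCD201+. It also gave 16 lower in BM-LSKCD201+, with Slc38a4 (-2.64), Rian (-2.23) and Igf2r (-1.27) among those added, 17 higher and 3 lower in D5-LSKCD201- against mESC, and 24 higher and 5 lower in D5-LSKCD201+ against mESC. Quantile normalization gave 0 lower in 3D+OP9 and 2 higher in BM-LSKCD201+, where Slc22a18 (0.96) and Impact (0.93) fell short, as did Peg3 (-0.98) among the lower genes. It moved the all-gene median by 0.11, -0.15, 0.11, 0.21 and -0.11 in D5-LSKCD201+ against D5-LSKCD201-, D5-LSKCD201- against mESC, D5-LSKCD201+ against FL-LSKCD201+, D5-LSKCD201+ against BM-LSKCD201+ and BM-LSKCD201+ against FL-LSKCD201+. Averaging the closest pair of replicates gave 0 lower in 3D+OP9, where Snrpn (-0.90) was lost. It also lost Gnas (0.96) in D5-LSKCD201- against mESC and Ddc (-0.76) and Slc22a18 (0.99) in BM-LSKCD201+ against FL-LSKCD201+, where Slc38a4 (-1.04) and Rian (-1.03) were gained. With each library left out in turn, 3D+OP9 had 2 to 5 members higher (5 without its replicate 3) and 0 to 1 lower. D5-LSKCD201+ had 20 to 22 higher and 4 lower against D5-LSKCD201-, 23 to 24 and 4 to 5 against mESC, 25 to 26 and 2 against FL-LSKCD201+, and 24 to 25 and 5 against BM-LSKCD201+. D5-LSKCD201- had 12 to 14 higher and 1 to 2 lower against mESC, and BM-LSKCD201+ had 3 to 6 higher and 9 to 12 lower against FL-LSKCD201+.

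With the replicate block, 10 members were lower in BM-LSKCD201+ than in FL-LSKCD201+ in place of 11, with Ddc lost, and the block changed no other call of a member there. In the other 6 comparisons the numbers were not taken as pairs, and the block left the counts of members at 3 higher and 1 lower in 3D+OP9 and at 22 higher and 4 lower between the D5 groups. No symbol repeated, so the alternative for repeated symbols gave no value. Depth was unknown, so a listed 0 or a value near 0 cannot be bounded.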
